A study of Mus musculus with 18 samples.

Results

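The genes described here are 10 genes of endoplasmic reticulum (ER) stress and the integrated stress response. They are Atf4, Ddit3, Trib3, Chac1, Asns, Sesn2 and Ppp1r15a on the side of the translation factor eIF2, and Hspa5, Xbp1 and Herpud1 on the side of ER protein folding. They were taken by symbol from the 21441 genes listed in each of 2 tables of FPKM values (fragments scaled to library depth and transcript length). All 10 were listed in both tables, and all 10 passed the filter of a mean FPKM above 1 over the 9 libraries of a table, beside 9905 genes in all in macrophages and 10147 in liver.

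The study asked what moringa isothiocyanate-1 (MIC-1), an isothiocyanate from moringa seeds, does to the response to lipopolysaccharide (LPS), the outer membrane component of Gram-negative bacteria. RNA was sequenced from 9 libraries of RAW264.7 cells, a mouse macrophage-like line, and from 9 livers of male wild type C57BL/6 mice, with 3 control, 3 LPS and 3 LPS+MIC-1 libraries in each. The control mice were a vehicle control (DMSO) injected with saline. The LPS mice received 10 mg/kg LPS into the peritoneum, and the LPS+MIC-1 mice were given MIC-1 by gavage at 80 mg/kg over the 3 days before the same LPS dose. Livers were taken 16 h after the injection. The study describes MIC-1 purified from a seed extract and given to the mice in DMSO. The series' design text gives 10 µM MIC-1 for LPS+MIC-1 samples of both kinds. The labels of the RAW264.7 samples repeat the mouse doses. The LPS concentration and the times of the sequenced RAW264.7 cultures are not given in the sources used here. No group received MIC-1 without LPS. All RAW264.7 libraries come from 1 cell line, and no label says that they were separate cultures, so that p-values there measure the spread between libraries, which may be technical.

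Column names of the tables carry the treatment only, and libraries are numbered here in column order within a treatment. Depth was estimated by taking the most frequent low value of FPKM times transcript length as 1 read. It was 17.9 to 22.9 M reads in macrophages. In liver it was 12.1 to 19.4 M in the LPS and LPS+MIC-1 libraries, but 10.8, 4.7 and 4.6 M in Control 1, 2 and 3. In macrophages LPS library 2 stood at the control level. Its Pearson correlation over the log2 values of all tested genes was 0.990 with Control 2 and at most 0.862 with the other LPS libraries, and the median of 12 LPS response genes lay 0.62 log2 units above control in it, against 4.18 in LPS libraries 1 and 3. The study used 8 macrophage libraries, with 2 of LPS, and does not name the one it left out. Macrophage results are therefore given for all 9 libraries and, beside them, for 8, without LPS library 2. In both tissues libraries 1 and 3 of a treatment were closer to each other than to library 2 (r = 0.986 and 0.979 for LPS, 0.988 and 0.979 for LPS+MIC-1), and liver results are also given for 7 libraries, without library 2 of both treatments. Macrophage markers summed to between 11060 and 13532 FPKM in every RAW264.7 library, where hepatocyte markers summed to at most 19.1.

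As background, cells under stress phosphorylate eIF2, which slows translation in general and favours that of Atf4, a transcription factor. ATF4 switches on amino acid supply genes and Ddit3, the gene of the transcription factor CHOP. Unfolded protein in the ER starts the unfolded protein response: the sensor PERK phosphorylates eIF2, the sensor IRE1 splices Xbp1 RNA, and the sensor ATF6 is cleaved and raises chaperones such as BiP, the product of Hspa5. Macrophages meet these pathways when they are activated, and hepatocytes carry a large ER for the secretion of plasma proteins.

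In mm9, the build of the tables, these genes are annotated as follows: Hspa5 at chr2:34627490-34632051, Chac1 at chr2:119176965-119180117, Trib3 at chr2:152163158-152169768, Sesn2 at chr4:132047947-132066416, Asns at chr6:7625169-7643254, Ppp1r15a at chr7:52778286-52781638, Herpud1 at chr8:96910338-96919277, Ddit3 at chr10:126727830-126733344, Xbp1 at chr11:5420662-5425896 and Atf4 at chr15:80085614-80087970. All are protein-coding genes. Ddit3 overlaps Mars and Ppp1r15a overlaps Tulp2 on the opposite strand, so their values are uncertain to the extent that reads of these neighbours were counted with them.

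The control levels set the scale of what follows. In control macrophages Hspa5 had the highest mean of the 10 genes, 850 ± 4.42 FPKM (SD, n = 3), and its range did not overlap that of the next gene. Atf4 (118 ± 10.4), Ddit3 (88.2 ± 31.6), Xbp1 (80.4 ± 8.51) and Asns (73.9 ± 3.73) followed, each overlapping its neighbour in the order. Herpud1 (41.2 ± 1.56) and Ppp1r15a (35.5 ± 7.50) came next and overlapped each other, as did Trib3 (11.3 ± 0.165) and Sesn2 (10.2 ± 1.76), and Chac1 was lowest at 5.09 ± 1.87. In control liver Hspa5 was again highest, at 168 ± 107, followed by Herpud1 (54.2 ± 27.8), Xbp1 (44.3 ± 27.6), Atf4 (21.3 ± 27.3) and Ddit3 (18.3 ± 3.26), and each of these overlapped the next in the order. Ppp1r15a (8.09 ± 0.899) stood apart from its neighbours on both sides, Trib3 (3.76 ± 1.53), Chac1 (2.43 ± 0.853) and Asns (2.24 ± 0.0873) overlapped in turn, and Sesn2 was lowest at 0.684 ± 0.351. The 2 tables were normalized separately, and levels are not compared between tissues by a test.

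The promoters of these genes were searched, because ATF4 and the ER stress factors are known to bind short elements close to the start of such genes. The 250 bases before the start of each of the 10 genes (RefSeq, GRCm38.p6) were read on both strands for 4 elements. The CARE core, TGATGNAA, is a site of ATF4 with C/EBP factors and lies in 3.45% of 32851 RefSeq promoters of the same length. It was found in Asns, Chac1 and Herpud1. The ER stress response element (ERSE: CCAAT, 9 bases, CCACG) lies in 0.113% of promoters and was found in Hspa5. ERSE-II (ATTGG, 1 base, CCACG) lies in 0.0304% and was found in Herpud1. The core of the unfolded protein response element, TGACGTGG, lies in 0.563% and was not found in these windows. The other 6 genes (Atf4, Ddit3, Trib3, Xbp1, Sesn2 and Ppp1r15a) held none of the 4 in these bases. A match is a match of letters, not a bound site. The promoters with a match are printed 5′ to 3′ on the strand of the gene, with the matched bases in capitals. They lie at chr6:7693210-7693459 (minus strand, Asns), chr2:119350992-119351241 (plus, Chac1), chr2:34771840-34772089 (plus, Hspa5) and chr8:94386179-94386428 (plus, Herpud1). The capitals of Asns begin at position -23 from the start of the gene, those of Chac1 at -193 and those of Hspa5 at -65, and Herpud1 has the CARE letters from -112 and the ERSE-II letters from -52. The letters of Chac1 and the CARE letters of Herpud1 match on the opposite strand.
Asns: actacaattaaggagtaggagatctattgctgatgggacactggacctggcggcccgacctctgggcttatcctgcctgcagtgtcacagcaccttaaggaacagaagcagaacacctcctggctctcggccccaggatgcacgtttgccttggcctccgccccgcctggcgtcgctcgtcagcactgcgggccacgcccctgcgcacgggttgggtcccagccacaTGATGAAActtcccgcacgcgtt
Chac1: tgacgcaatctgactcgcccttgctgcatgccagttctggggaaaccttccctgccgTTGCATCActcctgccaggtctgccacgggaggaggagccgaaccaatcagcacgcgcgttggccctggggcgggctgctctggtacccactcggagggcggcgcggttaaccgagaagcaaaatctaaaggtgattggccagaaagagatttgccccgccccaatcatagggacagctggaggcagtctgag
Hspa5: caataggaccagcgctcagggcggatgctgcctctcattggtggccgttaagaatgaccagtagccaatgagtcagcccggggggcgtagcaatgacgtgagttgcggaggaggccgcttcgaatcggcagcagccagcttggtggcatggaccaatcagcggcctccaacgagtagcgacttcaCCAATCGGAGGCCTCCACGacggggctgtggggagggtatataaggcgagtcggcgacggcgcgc
Herpud1: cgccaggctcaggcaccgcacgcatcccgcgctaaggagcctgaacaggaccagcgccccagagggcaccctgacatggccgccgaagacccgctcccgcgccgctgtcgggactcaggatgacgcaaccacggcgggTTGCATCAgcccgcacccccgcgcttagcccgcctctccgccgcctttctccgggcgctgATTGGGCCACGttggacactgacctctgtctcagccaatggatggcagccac

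Macrophages treated with LPS alone are read first on the deposited FPKM scale. The transcription factor genes Ddit3 and Atf4 and the feedback gene Ppp1r15a were well above control in LPS libraries 1 and 3. Xbp1 and the ER degradation gene Herpud1 were well below it there. LPS library 2 was near control in each of these 5, and Trib3, Chac1 and Hspa5 differed little from control. With the same FPKM sum in every library, Atf4 was no longer higher, and Trib3, Chac1 and Hspa5 were lower, as given below. That scaling lowers the Log2FC of every gene in this comparison. Ddit3, which encodes CHOP, had FPKM values of 71.1, 125 and 69.0 in the control libraries, and the LPS libraries gave 652, 126 and 586. LPS libraries 1 and 3 lay far above every control, and LPS library 2 was level with Control 2. Ppp1r15a, which encodes GADD34, the regulatory subunit that directs a phosphatase to eIF2, gave 31.3, 44.2 and 31.0 in control and 154, 46.2 and 151 with LPS. Here too library 2 lay just above the highest control. Atf4 itself measured 115, 109 and 129 in control and 219, 103 and 211 with LPS, so that library 2 fell below every control.

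With all 9 libraries, 0 of the 10 genes passed the threshold in LPS against control (limma on log2(FPKM + 0.5), adjusted p below 0.05, Benjamini-Hochberg over 9905 genes), beside 0% of all genes called higher and 0% lower. In 5 of the 10 the 3 LPS values did not overlap those of control, as in 33.3% of all tested genes. The smallest adjusted p of any gene was 0.0777, and 4928 genes, 3 of the 10 among them, had an unadjusted p under 0.05. The Log2FC of Ddit3 was 2.10 ± 0.58 (SE, adjusted p = 0.0777), that of Ppp1r15a 1.53 ± 0.43 (0.0777) and that of Herpud1 -1.01 ± 0.34 (0.0777). Fold changes are on the log2(FPKM + 0.5) scale, which understates the change of low genes.

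Without LPS library 2, 5 of the 10 genes were higher and 2 were lower, where 36.9% of all tested genes were called higher and 38.2% lower. Ddit3 rose by 2.86 ± 0.24 on the log2 scale (7.25-fold, limma adjusted p = 2.03e-05) and Ppp1r15a by 2.10 ± 0.15 (4.30-fold, adjusted p = 9.04e-06). Both were also higher when every library was scaled to the same FPKM sum. Atf4 (0.87 ± 0.11), Asns (0.78 ± 0.15) and Sesn2 (0.54 ± 0.13) were called higher on the deposited scale, but their Log2FC was -0.12, -0.21 and -0.42 with the same FPKM sum in every library. That scaling moves the median of all genes to -0.93, since FPKM summed to 1137533 and 1132904 in LPS libraries 1 and 3 and to between 557136 and 652486 in the other 7. Sesn2 encodes sestrin 2, a stress protein that restrains mTORC1, and Asns the enzyme that makes asparagine.

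Of the ER genes in the 8 libraries, Herpud1 and Xbp1 went the other way and Hspa5 did not pass. Trib3 and Chac1, on the side of eIF2, did not pass either. Herpud1, a membrane protein of ER-associated degradation, measured 39.4, 42.0 and 42.2 in control and 14.4, 38.6 and 14.6 with LPS, so that every LPS library lay below every control. Its Log2FC without LPS library 2 was -1.47 ± 0.11 (limma adjusted p = 1.34e-05). Xbp1, the gene of the transcription factor that IRE1 activates by splicing, gave 82.7, 70.9 and 87.5 in control and 30.2, 77.1 and 26.4 with LPS, with a Log2FC of -1.49 ± 0.32 (adjusted p = 0.00352) in the 8 libraries. FPKM here sums all Xbp1 transcripts, so spliced and unspliced forms are not told apart. Hspa5 measured 845, 852 and 852 in control and 918, 855 and 901 with LPS, a Log2FC of 0.10 with a 95% interval of -0.05 to 0.25 in the 8 libraries. Trib3, a pseudokinase induced by ATF4 and CHOP, gave 11.1, 11.4 and 11.4 in control and 12.9, 13.4 and 12.2 with LPS (0.14, interval -0.11 to 0.40), and Chac1, which degrades glutathione, 3.98, 7.24 and 4.03 against 4.87, 7.32 and 4.53 (-0.06, interval -0.61 to 0.50). With the same FPKM sum in the 8 libraries, these last 3 were called lower by limma. They stood at -0.89 for Hspa5 (adjusted p = 4.12e-06), -0.80 for Trib3 (0.000176) and -0.94 for Chac1 (0.00449). That scaling lowers the Log2FC of every gene in this comparison. These values lie close to the median of all genes under it, given above, so the falls are not particular to the 3 genes.

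**Figure D1:**
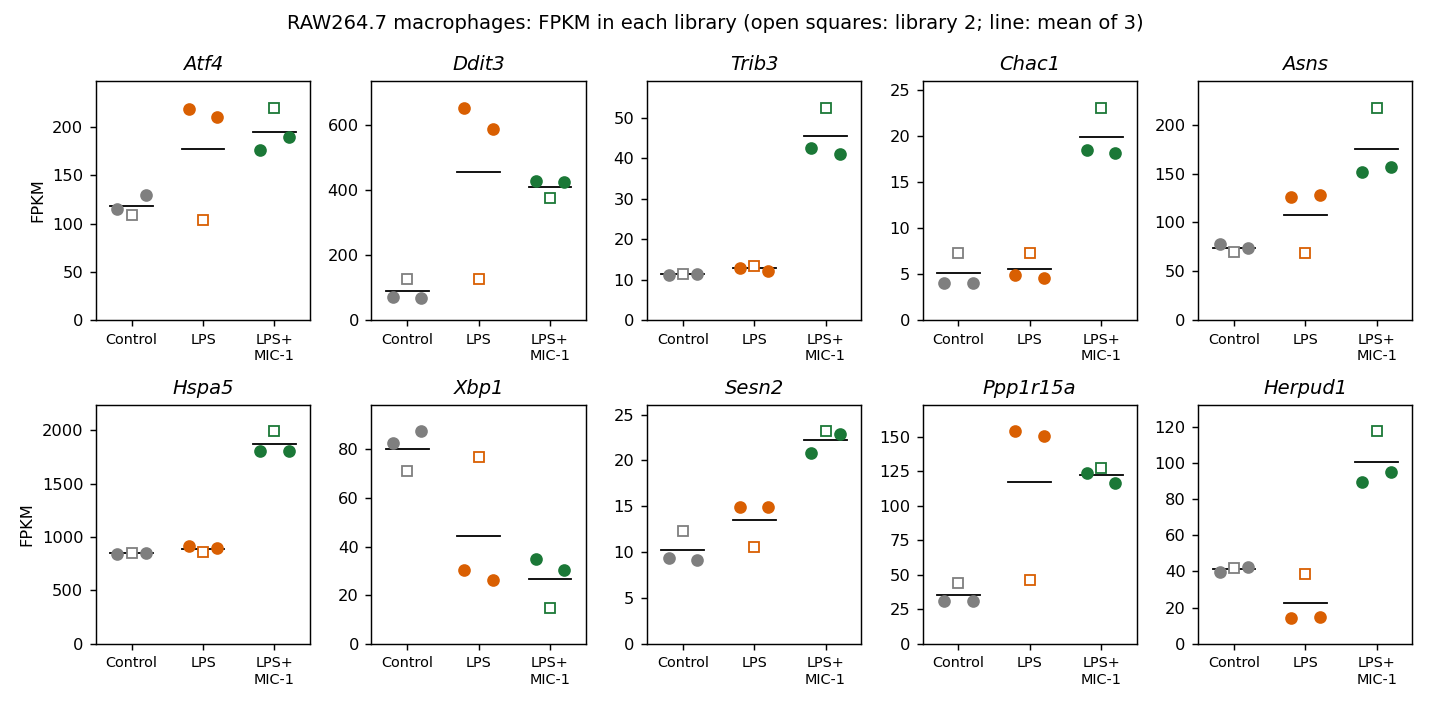
FPKM of the 10 genes in each RAW264.7 library, on a linear axis from 0 for each gene, with control in grey, LPS in orange and LPS+MIC-1 in green; open squares are library 2 of a treatment and lines are means of 3 libraries. LPS library 2 lies with the controls in Ddit3 (126 against 652 and 586 in the other LPS libraries), and the LPS+MIC-1 libraries of Trib3 (41.0 to 52.6) and Hspa5 (1805 to 1991) lie above all others.

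When MIC-1 was added to LPS, the 3 genes closest to control with LPS alone on the deposited scale rose in macrophages. Herpud1 and Sesn2 rose with them. Trib3 reached 42.7, 52.6 and 41.0 FPKM with LPS+MIC-1, 3.43-fold its level with LPS. Chac1 reached 18.5, 23.1 and 18.1, or 3.40-fold. Hspa5 reached 1805, 1991 and 1810 FPKM, or 2.09-fold. In each of these 3 genes the LPS+MIC-1 values lay above all others. Herpud1, low with LPS, measured 89.6, 118 and 95.2 with LPS+MIC-1, above its control level as well. For Sesn2 the control libraries gave 9.33, 12.3 and 9.11, the LPS libraries 14.9, 10.5 and 14.9, and those with MIC-1 added 20.8, 23.2 and 22.9. In 6 of the 10 genes the ranges did not overlap between LPS+MIC-1 and LPS, beside 36.1% of all tested genes.

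With all 9 libraries 5 of the 10 genes were called higher than with LPS and 0 lower, where 10.2% of all genes were called higher and 11.4% lower. The Log2FC was 2.28 ± 0.34 for Herpud1 (limma adjusted p = 0.00443), 1.78 ± 0.12 for Trib3 (0.000486), 1.77 ± 0.26 for Chac1 (0.00411), 1.07 ± 0.12 for Hspa5 (0.00131) and 0.72 ± 0.17 for Sesn2 (0.0255). Without LPS library 2, 6 were higher and 0 lower, beside a background of 34.0% of all genes higher and 34.1% lower. Herpud1 then stood at 2.74 ± 0.11, Trib3 at 1.81 ± 0.11, Chac1 at 1.96 ± 0.24, Hspa5 at 1.04 ± 0.06 and Sesn2 at 0.56 ± 0.13. Asns, at 151, 218 and 157 FPKM with LPS+MIC-1 against 126, 68.6 and 128 with LPS, was added at 0.44 ± 0.15 (adjusted p = 0.0291). The medians of the 10 genes were 0.73 in the 9 libraries and 0.50 in the 8, beside -0.01 and 0.01 over all genes. Scaling to the same FPKM sum adds to the Log2FC of every gene in this comparison. It could therefore not turn any of these 6 rises, and is no check of them. The Sesn2 call was lost when any 1 LPS+MIC-1 library was left out of the 9, which left 4, and the Asns call in the 8 when LPS library 1 or 3 was left out as well, which left 5. In the 8 libraries Ddit3 was called lower when Control 2 or 3 was left out as well, and Ppp1r15a without Control 2, which made 8 of the 10 called. With libraries 1 and 3 of each treatment averaged as 1 sample, 0 of the 10 were called in the 9 libraries.

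Atf4, Ddit3, Xbp1 and the feedback gene Ppp1r15a did not pass the test between LPS+MIC-1 and LPS. Atf4 measured 176, 220 and 190 with LPS+MIC-1, and its Log2FC against LPS was 0.21 (95% interval -0.42 to 0.84) in the 9 libraries and -0.14 (-0.40 to 0.11) in the 8. Ddit3 measured 426, 375 and 424, below LPS libraries 1 and 3 and above library 2, a Log2FC of 0.16 (-1.17 to 1.49) in the 9 and of -0.60 (-1.16 to -0.05, limma adjusted p = 0.0542) in the 8. Ppp1r15a measured 124, 127 and 117 (0.26, interval -0.72 to 1.23, and -0.31, interval -0.66 to 0.03). Xbp1 gave 35.1, 14.8 and 30.4, of which library 2 was the lowest of all 9 (-0.64, interval -1.66 to 0.37, and -0.16, interval -0.92 to 0.59, in the 8). The signs of Atf4, Ddit3 and Ppp1r15a thus differ between the 9 and the 8 libraries. All 3 are positive with the same FPKM sum in every library, in the 9 and in the 8. That scaling adds to the Log2FC of every gene in this comparison, so these signs are not particular to the 3 genes.

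Against control, LPS+MIC-1 macrophages had 8 of the 10 genes higher and 1 lower, beside a background of 11.8% of all genes higher and 13.0% lower. In this comparison the ranges did not overlap in any of the 10 genes, nor in 66.4% of all tested genes. Ddit3 rose 4.78-fold (Log2FC 2.26 ± 0.58, limma adjusted p = 0.0264), Trib3 3.87-fold (1.95 ± 0.12, 0.000236), Chac1 3.75-fold (1.91 ± 0.26, 0.00261) and Ppp1r15a 3.46-fold (1.79 ± 0.43, 0.0202). Asns (1.22 ± 0.25), Hspa5 (1.14 ± 0.12), Sesn2 (1.10 ± 0.17) and Herpud1 (1.27 ± 0.34) were higher as well, and Xbp1 was lower (-1.65 ± 0.44, adjusted p = 0.0301). Atf4 missed the threshold at 0.73 ± 0.27 (0.0883) and passed it without LPS library 2, a library that enters this comparison only through the shared estimate of the spread (9 higher and 1 lower, beside 28.1% and 32.2% of all genes). Leaving out another single library left 4 to 9 of the 10 genes called. The calls of Ddit3 and Ppp1r15a were lost without Control 1, without Control 3 or without any 1 LPS+MIC-1 library, those of Xbp1 and Herpud1 without any 1 control or LPS+MIC-1 library and with the same FPKM sum, and that of Asns without Control 3. With libraries 1 and 3 of each treatment averaged, 0 were called. LPS+MIC-1 against LPS and LPS+MIC-1 against control share the LPS+MIC-1 libraries. The exact permutation test of single genes cannot go below p = 0.1 with 3 libraries against 3, so it gives no call.

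Cell type markers in these cultures moved for 1 of the lists. The neutrophil list (9 of 10 genes in the table) summed to between 3.21 and 5.41 FPKM in control libraries and between 5.68 and 44.0 in those with LPS, and reached between 691 and 757 when MIC-1 was added, nearly all of it from S100a8, while Retnlg and Ngp, which also define neutrophils, were near 0. The macrophage list summed to between 11758 and 12986 with LPS+MIC-1 and between 12804 and 13532 with LPS. Endothelial markers summed to at most 12.7, and those of stellate cells with cholangiocytes, of lymphocytes and of erythroid cells to at most 0.77 in any library. The part of these markers in the changes above was not tested.

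Over the 9 libraries of a table, the genes whose log2 values ran most like Ddit3 in macrophages were Hk1 (Pearson r = 0.999), Dok3 (0.998) and Micall2 (0.998), and 417 of 9904 genes had r above 0.95. For Hspa5 they were Hmga2 (0.999), Cat (0.998) and Trib3 (0.996), with 182 genes above 0.95. In liver, Ikbke (0.991), Ccl19 (0.983) and Ncf1 (0.982) ran most like Ddit3, with 31 of 10146 genes above 0.95, and Dnajb9 (0.996), Srsf9 (0.995) and Isca1 (0.995) most like Hspa5, with 380. The 9 points share the groups and, in liver, the depth of the libraries, so these are descriptions. Among the 10 genes themselves, Ddit3 and Ppp1r15a correlated at 0.99 in macrophages, and Xbp1 ran against Asns there (-0.96). In liver Ddit3 ran with Asns (0.96) and Hspa5 with Herpud1 (0.94).

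The wider pathways were read from 9 lists of 134 genes, chosen with earlier results of these data known. For LPS+MIC-1 against LPS in macrophages, the counts stand beside 10.2% of all genes called higher and 11.4% lower in the 9 libraries, and 34.0% and 34.1% in the 8. Of 17 tested amino acid genes 10 were higher and 0 lower in the 9 libraries (16 and 0 in the 8), with a median Log2FC of 0.83 beside -0.01 over all genes. Slc7a11, the cystine importer and also a target of Nrf2, went from 13.7, 2.27 and 13.8 FPKM with LPS to 80.8, 125 and 79.7 (Log2FC 3.50 ± 0.59, limma adjusted p = 0.00705, and 2.71 ± 0.24 in the 8). Cth, which makes cysteine from cystathionine, went from 10.1, 11.9 and 10.3 to 58.1, 81.1 and 59.9 (2.56 ± 0.15, 0.000486, and 2.63 in the 8). The neutral amino acid carriers Slc38a2 (2.40 ± 0.44, and 2.96 in the 8) and Slc1a4 (1.61 ± 0.38, and 2.03) rose too. Slc38a2 had measured 46.1, 35.5 and 46.5 in control and 10.8, 34.4 and 10.4 with LPS, so LPS libraries 1 and 3 were below control before the rise to 75.7, 118 and 69.4.

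Among the aminoacyl-tRNA synthetases, which load amino acids onto their tRNAs, 7 of 12 were higher and 0 lower (11 and 0 in the 8 libraries), beside 10.2% and 11.4% of all genes (34.0% and 34.1%). Wars rose by 1.48 ± 0.32, Sars by 1.16 ± 0.16, Cars by 1.12 ± 0.29 and Lars by 0.98 ± 0.27, and in the 8 libraries by 1.91, 1.17, 0.87 and 1.30. In the same list without LPS library 2, LPS against control gave 2 higher and 5 lower of 12, beside 36.9% and 38.2% of all genes. Of 15 tested regulators and secreted factors, 7 were higher and 0 lower in the 9 libraries, but 7 higher and 5 lower in the 8, where 34.0% and 34.1% of all genes were called. Stc2, a secreted glycoprotein, rose from 0.751, 1.37 and 0.415 to 5.78, 6.96 and 4.81 FPKM (2.29 ± 0.27, limma adjusted p = 0.00173, and 2.56 in the 8). Gadd45a (1.59 ± 0.39, and 1.12 in the 8), the autophagy receptor Sqstm1 (1.46 ± 0.42, and 0.91) and the ER oxidase Ero1l (1.08 ± 0.29, and 0.70) also rose. With LPS alone against control 0 genes of any list were called by limma in the 9 libraries (53 of 126 tested list genes had an unadjusted p under 0.05), and in the 8 this list gave 12 of 15 higher, 1 lower (36.9% and 38.2% of all genes) and a median of 1.80, on a scale where the same FPKM sum moves the median of all genes to -0.93.

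Genes of ER folding beside Hspa5 were called higher as well in macrophages with LPS+MIC-1 against LPS. Of 20 chaperones and folding enzymes 7 were higher and 0 lower in the 9 libraries (10 and 4 in the 8), beside 10.2% and 11.4% of all genes (34.0% and 34.1%). Dnajb9, a BiP cochaperone, went from 11.6, 14.7 and 12.3 to 39.7, 52.7 and 42.3 FPKM (1.76 ± 0.15, limma adjusted p = 0.000674, and 1.86 in the 8). The disulfide isomerase Pdia4 rose by 1.20 ± 0.13, Hsp90b1 (GRP94) by 0.86 ± 0.21 and Creld2 by 0.68 ± 0.13, and in the 8 libraries by 1.32, 1.09 and 0.63. In ER-associated degradation 6 of 15 were higher and 1 lower (9 and 2 in the 8). The ubiquitin ligase Syvn1 (1.35 ± 0.19, and 1.58 in the 8) and its partner Sel1l (0.97 ± 0.12, and 0.93) rose, as did Ufd1l (0.71 ± 0.11, and 0.80), and the conjugating enzyme Ube2g2 fell by 0.95 ± 0.28 (limma adjusted p = 0.0476), and in the 8 libraries fell by 1.32. Of 18 translocon and secretory genes 6 were higher and 0 lower (9 and 2), led by Sec24d (1.36 ± 0.27), Tram1 (0.83 ± 0.18), Sec61b (0.71 ± 0.17) and Sec61a1 (0.54 ± 0.14), which stood at 1.67, 1.02, 0.86 and 0.52 in the 8.

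Few genes upstream were called in the 9 libraries. Of the 15 genes of eIF2, its kinases and eIF2B 1 was higher, Impact, an inhibitor of the kinase GCN2 (1.02 ± 0.16, limma adjusted p = 0.00505, and 1.01 in the 8), and 0 of the 9 sensors and proteases of the unfolded protein response and 0 of 7 genes of the sestrin and mTORC1 list were called, beside 10.2% of all genes higher and 11.4% lower. At an unadjusted p under 0.05 there were 4 of the 15 eIF2 and eIF2B genes, 3 sensors and 0 of the sestrin list. In the 8 libraries these lists gave 5 higher and 4 lower, 2 and 5, and 1 and 2, beside 34.0% and 34.1% of all genes. Same-sum scaling moves the median of all genes to 0.44 in the 9 libraries and 0.74 in the 8 for LPS+MIC-1 against LPS, which adds to each rise given here.

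**Figure D2:**
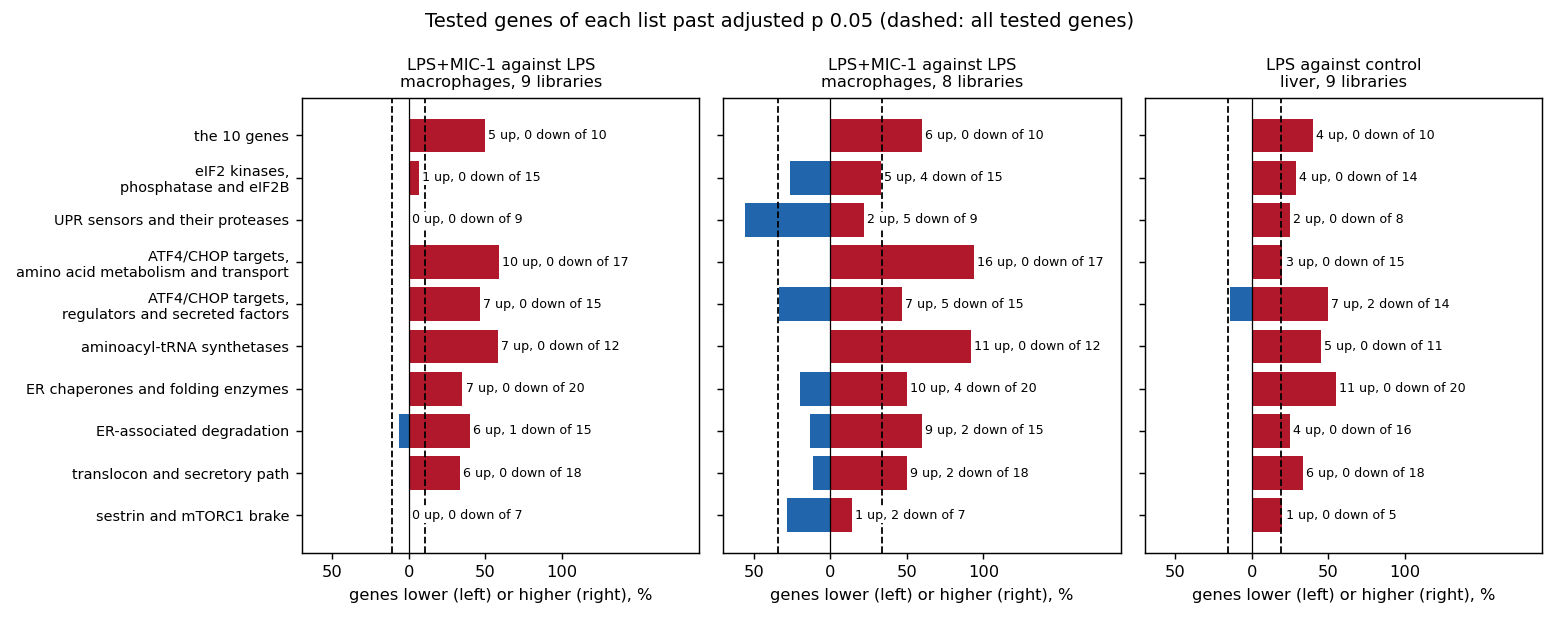
Share of the tested genes of each list called higher (red, to the right) or lower (blue, to the left) at adjusted p below 0.05, with the counts written beside the bars and the shares over all tested genes as dashed lines. In macrophages, LPS+MIC-1 against LPS, the amino acid list gave 10 of 17 higher in 9 libraries and 16 of 17 in 8; in liver, LPS against control, the chaperone list gave 11 of 20.

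In the liver with LPS, Ddit3 and Asns on the side of ATF4 were higher, with Hspa5 and Sesn2, while Trib3 and Ppp1r15a did not pass the test. Asns measured 2.30, 2.14 and 2.28 FPKM in control liver and 13.8, 22.0 and 14.7 with LPS, and every treated library was above every control. Ddit3 measured 14.9, 21.4 and 18.4 in control and 55.3, 113 and 68.8 with LPS, again without overlap, which 3 of the 10 genes and 45.0% of all tested genes showed. Hspa5 gave 288, 132 and 82.9 in the control livers against 794, 256 and 779 in those given LPS, of which library 2 fell below Control 1. Sesn2 was near the filter, at 1.09, 0.487 and 0.477 in control and 3.61, 1.48 and 2.87 with LPS. In whole tissue, fewer cells of a type and less RNA per cell cannot be told apart.

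In the 9 liver libraries 4 of the 10 genes were called higher with LPS and 0 lower, beside 19.2% and 15.5% of all tested genes. The Log2FC was 2.63 ± 0.24 for Asns (6.19-fold, limma adjusted p = 0.000501), 2.03 ± 0.39 for Ddit3 (4.10-fold, 0.00752), 1.88 ± 0.55 for Hspa5 (3.67-fold, 0.0302) and 1.39 ± 0.41 for Sesn2 (2.61-fold, 0.0312). Sesn2 had a control mean of 0.684 FPKM and passed the filter only through the treated groups, where it is high. With no filter on low values it was called as well. These 4 kept their direction with the same FPKM sum in every library. Without library 2 of LPS and of LPS+MIC-1, 7 were higher and 0 lower, beside 28.8% and 22.7% of all genes. The added genes were Xbp1 (2.52 ± 0.66, adjusted p = 0.0217), Herpud1 (1.57 ± 0.40, 0.0201) and Chac1 (1.38 ± 0.26, 0.00684). The calls of Hspa5 and Sesn2 were lost without Control 2, Control 3, LPS library 1 or LPS library 3, which left 2 of the 10, and leaving out LPS library 2 alone gave 7. Without Control 2 and 3, the 2 shallowest libraries, 1 of the 10 genes was called, and Ddit3 was among those lost.

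The other 6 genes were not called in the 9 libraries. Atf4 measured 52.7, 7.49 and 3.67 in the controls against 70.1, 15.6 and 45.3 with LPS, so that Control 1 exceeded 2 of the 3 LPS libraries (Log2FC 1.62, 95% interval -0.57 to 3.82, and 2.23, -0.28 to 4.74, in the 7 libraries). Control 1 was the deepest control and had the highest value of its group in 9 of the 10 genes, and Control 3 had the lowest in 8. Whether depth has a part in this was not tested. Xbp1 gave 66.1, 53.3 and 13.3 in control and 206, 33.3 and 215 with LPS (1.64, -0.22 to 3.51), and Herpud1 84.8, 47.4 and 30.5 against 151, 62.2 and 146 (1.15, -0.03 to 2.34). Ppp1r15a (-0.16, -0.84 to 0.52) and Trib3 (0.04, -0.62 to 0.70) were close to control on average, and the sign of Trib3 turned with the scaling, to -0.04 by median of ratios and to -0.28 with the same FPKM sum.

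Library 2 of the treated livers split the set. In both LPS and LPS+MIC-1, library 2 was the lowest of its group in 8 of the 10 genes and the highest in the other 2, Ddit3 and Asns. Its Hspa5 was 256 FPKM in LPS, against 794 and 779 in the other LPS livers, while its Ddit3 was 113 against 55.3 and 68.8. In LPS+MIC-1, library 2 had 370 FPKM of Hspa5 against 520 and 513, and 99.6 of Ddit3 against 39.9 and 43.4. These 2 libraries had the lowest estimated depth of their groups, 12.1 and 14.6 M reads.

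**Figure D3:**
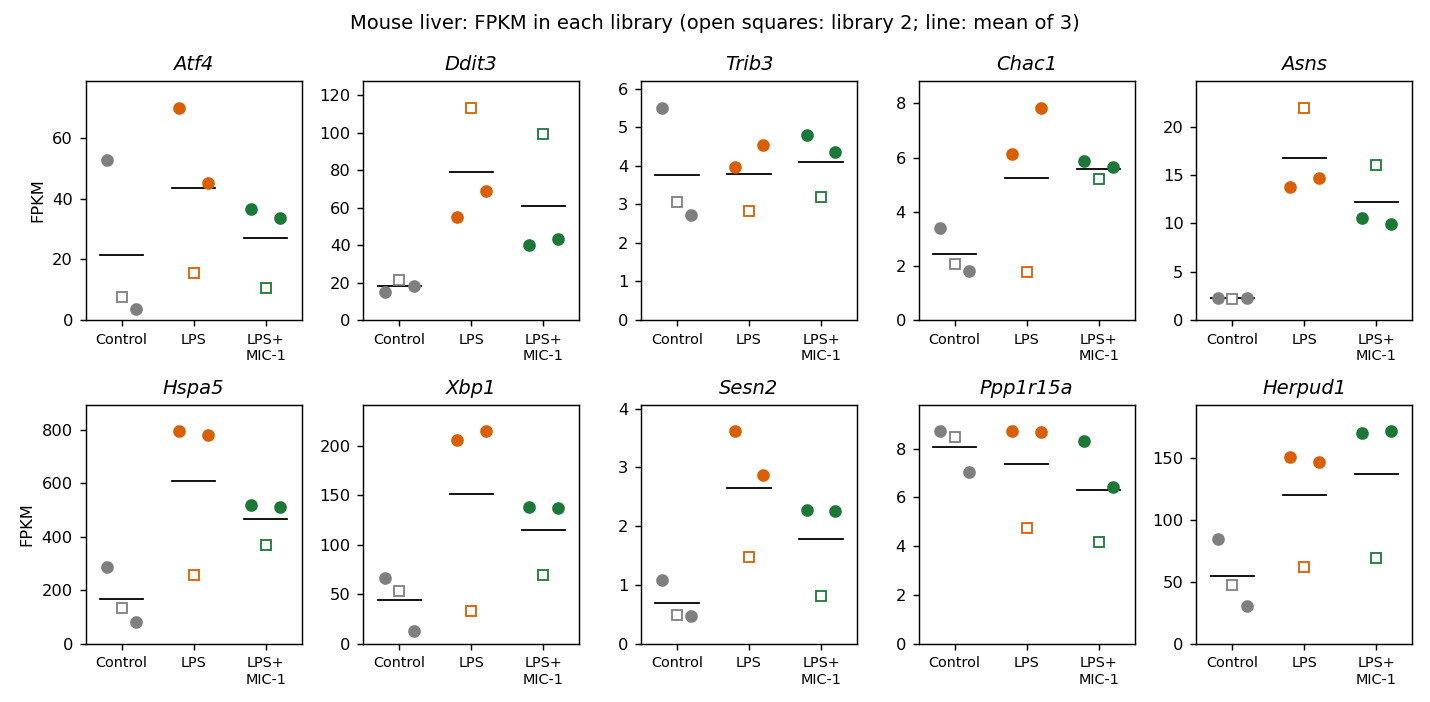
FPKM of the 10 genes in each liver library, on a linear axis from 0 for each gene, with control in grey, LPS in orange and LPS+MIC-1 in green; open squares are library 2 of a treatment and lines are means of 3 libraries. In the treated groups library 2 is highest in Ddit3 (113 and 99.6) and Asns (22.0 and 16.0) and lowest in the other 8 genes, and all treated libraries of Asns lie above the controls (2.14 to 2.30).

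For liver LPS+MIC-1 against LPS, 0 of the 10 genes were called by limma, and 0% of all 10147 genes was called in either direction (smallest adjusted p = 0.0546, 364 genes and 0 of the 10 with an unadjusted p under 0.05). Asns measured 10.6, 16.0 and 9.93 with LPS+MIC-1 (Log2FC -0.45, 95% interval -1.0 to 0.10), and Ddit3 39.9, 99.6 and 43.4 (-0.44, -1.33 to 0.46). In 0 of the 10 genes, and in 9.75% of all tested genes, the ranges did not overlap. Hspa5 measured 520, 370 and 513 (-0.23, -1.47 to 1.02). Intervals of this width leave both a fall and a rise of such a size undetected in the 9 libraries. In the 7 libraries 0 of the 10 were called again (2, Asns and Ddit3, at an unadjusted p under 0.05), where 2.32% of all genes were higher and 1.36% lower. With 2 libraries against 2 there, the ranges of 9 of the 10 genes did not overlap, beside 69.2% of all tested genes in either direction. Of those 9 genes, 8 were lower with LPS+MIC-1 and Herpud1 was higher, and Trib3 overlapped. The share of all tested genes that lay lower was not read. The pairs kept were chosen after seeing the values and were alike (r = 0.979 within each pair). Ranges of such pairs are narrow, so these counts are no test of a fall with MIC-1. The values with LPS+MIC-1 were 5.88, 5.21 and 5.64 for Chac1, 138, 69.6 and 137 for Xbp1, 2.28, 0.820 and 2.26 for Sesn2, and 170, 69.4 and 171 for Herpud1. Their 95% intervals in the 9 libraries all include 0.

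Against control, LPS+MIC-1 livers had 3 of the 10 genes higher and 0 lower, beside 20.1% and 16.3% of all genes. They were Asns (2.18 ± 0.24, limma adjusted p = 0.00106), Ddit3 (1.60 ± 0.39, 0.0153) and Hspa5 (1.65 ± 0.55, 0.0443). In 5 of the 10 genes the ranges did not overlap, beside 54.6% of all tested genes. In the 7 libraries 6 were higher and 0 lower, beside 25.7% and 19.6% of all genes, with Chac1 (1.13 ± 0.26), Sesn2 (1.26 ± 0.27) and Herpud1 (1.77 ± 0.40) added. The Hspa5 call was lost with no filter on low values, with the same FPKM sum, and when any 1 library other than Control 1 or LPS library 2 was left out, and the Ddit3 call was lost with the same FPKM sum. Leaving out single libraries left 2 to 5 genes called, with 5 when LPS library 2 was left out, and leaving out both Control 2 and 3 left 1. LPS against control and LPS+MIC-1 against control share the 3 control livers.

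A stricter rule, an adjusted p below 0.01 with an absolute Log2FC above 1, was also read in each comparison of 9 libraries. In macrophages it gave 0 of the 10 genes for LPS against control (0% of all genes), 4 for LPS+MIC-1 against LPS (3.87%) and 4 for LPS+MIC-1 against control (5.59%). The liver gave 2 for LPS against control (10.9%), 0 for LPS+MIC-1 against LPS (0%) and 1 for LPS+MIC-1 against control (13.5%). The gene left in the last of these was Asns. In macrophages the 4 were Herpud1, Trib3, Chac1 and Hspa5 against LPS, and Trib3, Chac1, Hspa5 and Sesn2 against control.

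**Figure D4:**
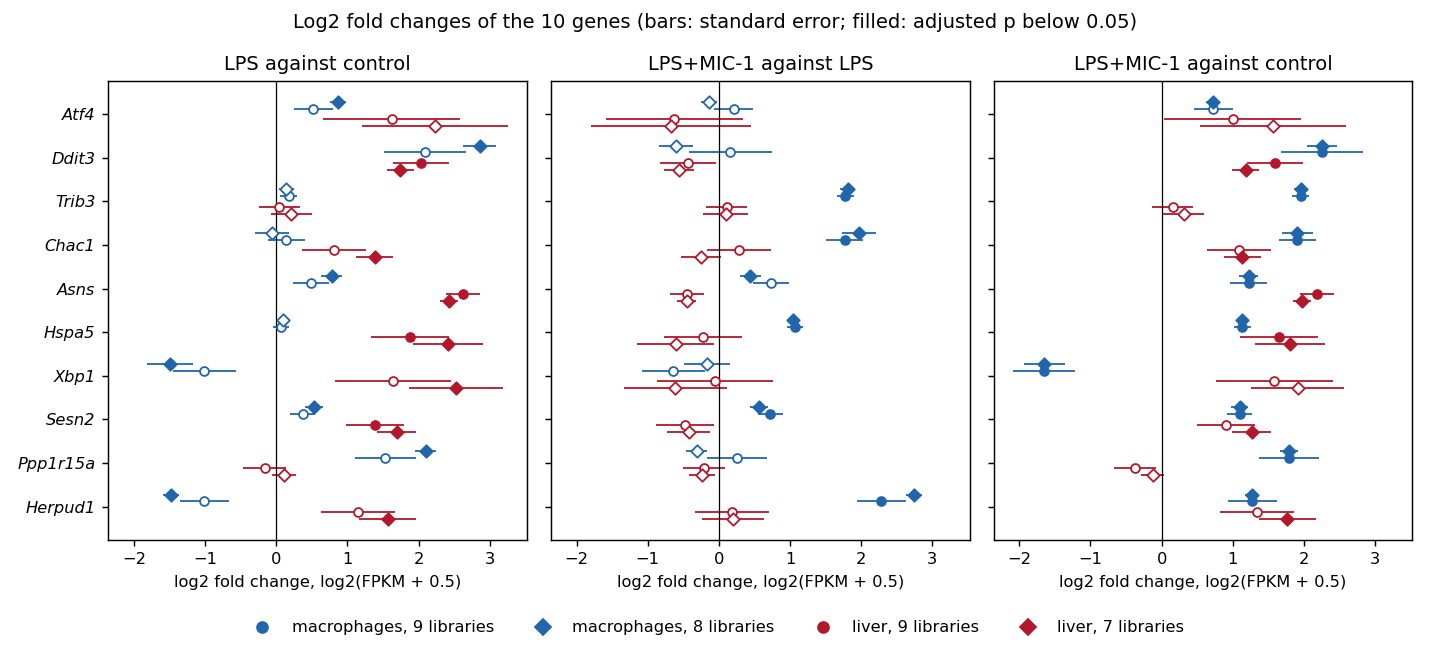
Log2FC of the 10 genes, with standard errors, in the 3 comparisons: macrophages in blue and liver in red, circles for all 9 libraries of a table, diamonds without macrophage LPS library 2 (8 libraries) or without liver library 2 of LPS and LPS+MIC-1 (7 libraries). Filled symbols have an adjusted p below 0.05; in LPS+MIC-1 against LPS the filled symbols are macrophages only, from 0.44 for Asns to 2.74 for Herpud1 in the 8 libraries.

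For LPS against control in liver, the counts of the lists stand beside 19.2% of all genes called higher and 15.5% lower in the 9 libraries, and 28.8% and 22.7% in the 7. With LPS, 11 of 20 chaperones and folding enzymes were higher and 0 lower in the 9 libraries (11 and 1 in the 7), with a median of 1.35 beside 0.15 over all genes. Creld2 rose from 43.3, 21.9 and 15.9 to 230, 83.0 and 245 FPKM (2.73 ± 0.47, limma adjusted p = 0.00544), Dnajb9 from 26.2, 8.20 and 3.51 to 86.7, 20.1 and 74.3 (2.39 ± 0.74, 0.0367, and 3.05 in the 7), and Pdia6 and Dnajb11 by 2.13 ± 0.41 and 1.93 ± 0.33. Like Hspa5, Dnajb9 in LPS library 2 lay below Control 1. Of 18 translocon and secretory genes 6 were higher and 0 lower (14 and 0 in the 7), with Spcs1 of the signal peptidase complex at 2.41 ± 0.58 (3.12 in the 7), Srprb at 1.49 ± 0.37, Sec61a1 at 1.43 ± 0.45 and Sec61b at 1.31 ± 0.40. In ER-associated degradation 4 of 16 were higher and 0 lower in the 9 libraries, close to the share of all genes. In the 7 libraries 9 were higher and 0 lower, above the 28.8% of all genes called higher there. The 4 were Ube2g2 (2.07 ± 0.49), Ube2j1 (1.72 ± 0.51), Derl1 (1.30 ± 0.23) and Edem1 (1.09 ± 0.34). Ube2g2 had fallen in macrophages with LPS+MIC-1 against LPS.

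Of 14 tested regulators and secreted factors in liver, 7 were higher and 2 lower with LPS (8 and 3 in the 7), beside 19.2% and 15.5% of all genes (28.8% and 22.7%). Nupr1, a stress-induced nuclear protein, had control values of 7.73, 10.1 and 6.69 FPKM and rose with LPS to 45.1, 69.8 and 55.2 (2.72 ± 0.66). Its LPS+MIC-1 values were 12.3, 96.2 and 16.0, where library 2 again stood apart. Fgf21, a liver hormone induced by ATF4, measured 0.638, 0.221 and 0 in control and 4.22, 3.39 and 5.57 with LPS (2.70 ± 0.40, limma adjusted p = 0.00324). It was below 1 FPKM in every control and passed the filter only through the treated groups. Ddit4, an mTORC1 inhibitor listed both here and among the sestrin genes, rose by 2.52 ± 0.71. The death receptor gene Tnfrsf10b fell by 2.05 ± 0.58, from 12.1, 36.5 and 35.1 to 5.02, 9.96 and 3.59. In the shallow Control 2 and 3 it was above the deeper Control 1.

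Of the amino acid list, which is read without Asns, 3 of 15 tested genes in liver were higher and 0 lower (8 and 1 in the 7), beside 19.2% and 15.5% of all genes (28.8% and 22.7%), with the folate enzymes Mthfd2 (1.55 ± 0.34) and Shmt2 (1.41 ± 0.30) and the transaminase Gpt2 (1.20 ± 0.26). Of 11 aminoacyl-tRNA synthetases 5 were higher and 0 lower (7 and 1): among them were Wars (1.71 ± 0.17), Gars (1.60 ± 0.25), Sars (1.50 ± 0.42) and Lars (0.95 ± 0.28). The counts that follow are also near these shares in the 9 libraries. Upstream, 4 of 14 eIF2 and eIF2B genes were higher and 0 lower (6 and 2): Eif2b5 (1.35 ± 0.19), Eif2s1 (1.27 ± 0.18), Eif2b2 (1.21 ± 0.28) and Eif2s3x (1.10 ± 0.32). Of 8 sensors and proteases 2 were higher and 0 lower (6 and 0), the membrane-bound factors Creb3 (1.13 ± 0.22) and Creb3l3 (0.84 ± 0.18). Of the sestrin list 1 of 5 tested genes, Ddit4, was higher and 0 lower. With LPS+MIC-1 against LPS 0 genes of these lists were called by limma in the 9 libraries, and 2 of 119 tested list genes had an unadjusted p under 0.05. In the 7 libraries 2 of 15 amino acid genes were higher and 2 lower and 1 of 14 regulators was lower, beside 2.32% and 1.36% of all genes.

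Markers of other cells moved with LPS in the livers. The neutrophil list summed to between 37.6 and 53.1 FPKM in control livers, between 354 and 449 in LPS livers and between 192 and 462 when MIC-1 was added. The macrophage list summed to between 46.2 and 82.8, 176 and 657, and 208 and 483. Hepatocyte markers summed to between 44968 and 90003, 56613 and 60999, and 50551 and 77934, and all 10 had a mean above 1 FPKM in each group. The endothelial list summed to 42.5 to 45.2, 43.2 to 58.1 and 45.4 to 58.1, with Tek at 0 in every library. Stellate cell and cholangiocyte markers summed in these 3 groups to 13.3 to 17.6, 5.75 to 13.3 and 11.1 to 16.6, lymphocyte markers to 7.87 to 8.12, 2.93 to 6.30 and 4.04 to 6.07, and erythroid markers to 1068 to 1846, 745 to 1084 and 719 to 998. Their part in the changes of the 10 genes was not tested.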

How the data were processed

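RNA of RAW264.7 macrophages and mouse livers was extracted with a column kit, sequenced, and deposited by the authors as 2 tables of FPKM values, 1 per tissue. Reads had been assigned to RefSeq transcripts of mm9 with kallisto 0.45.0, summed per gene with tximport and turned into FPKM with DESeq2 1.20.0, so FPKM is normalized to library and transcript length by the authors. These tools come from the study's methods and processing notes. Whether strand was used in counting is not given in the sources used here, and Ddit3 overlaps Mars, and Ppp1r15a overlaps Tulp2, on opposite strands. Tables that hold the authors' own fold changes and p-values were not used. All 18 sample columns matched a treatment, 3 for each, and 0 did not.

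From the FPKM, log2(FPKM + 0.5) was tested with limma 3.58.1 in R 4.3.3 (lmFit, contrasts and eBayes with a trend) on all genes of a table with a mean FPKM above 1, with the 3 groups in 1 model and Benjamini-Hochberg adjustment over all genes tested. The fit was tested on simulated data. Tables and plots were made with Python 3.11.15, numpy 2.4.6, pandas 2.3.3, scipy 1.17.1 and matplotlib 3.10.9. Depth was estimated by taking the most frequent low value of FPKM times the length of the longest coding transcript as 1 read, so it is approximate. The intervals of fold changes are 95% intervals, and FPKM gives no counting interval. The 10 genes, the 9 pathway lists, the 7 marker lists and the alternatives were chosen with earlier results of these data known, and the fit of 7 liver libraries was added after seeing the values. Beside the 10 genes, the text names up to 4 genes per list and tissue with the largest change among those called in LPS against control or LPS+MIC-1 against LPS, and the 3 genes that correlate most with Ddit3 and Hspa5 in each table. Promoters came from RefSeq (GRCm38.p6), with an entry for all 10 genes. Alternatives were another pseudocount, no low-value filter, other scalings, a GC and length trend taken out, fits of 2 groups only, averages of near-identical libraries, and each library left out.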

Additional observations from a re-analysis of the deposited data

Results flagged for a closer look

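In 6 genes and comparisons the values moved in opposite directions in the 2 tissues in every library, read against the mean log2 value of the group compared with. The difference between tissues was not tested, since the tables were normalized separately. For LPS against control, the Log2FC of Herpud1 was -1.01 in macrophages and 1.15 in liver. For LPS+MIC-1 against LPS, Atf4 stood at 0.21 in macrophages and -0.63 in liver, Asns at 0.74 and -0.45, Hspa5 at 1.07 and -0.23, and Sesn2 at 0.72 and -0.48. For LPS+MIC-1 against control, Xbp1 stood at -1.65 in macrophages and 1.58 in liver. Of the liver values none passed the test, and of the macrophage values Hspa5, Sesn2 and Xbp1 did. Without macrophage LPS library 2 the Atf4 value there turned to -0.14, the sign of the liver value. No group of 4 or more libraries was present, so single libraries were not tested for standing apart.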

How the results depend on the processing

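Values are numbers of the 10 genes called, then Log2FC. For macrophage LPS against control, 0 in the 9 libraries, leaving out LPS library 2 gave 7. With the same FPKM sum as well it gave 8, with median of ratios 7 and with libraries 1 and 3 averaged 6. Single libraries left out of the 9 or of the 8 gave 0 to 8. For LPS+MIC-1 against LPS (5), libraries 1 and 3 averaged gave 0, and LPS library 2 out with the same sum 8. There, single libraries left out of the 9 or of the 8 gave 4 to 8, with 8 reached without both LPS library 2 and Control 2. For LPS+MIC-1 against control (9), the stricter rule gave 4, averaging 0, and single libraries 4 to 10. In liver LPS against control (4), the stricter rule and averaging each gave 2, library 2 of both treatments left out 7, Control 2 and 3 left out 1, and single libraries 2 to 7. For liver LPS+MIC-1 against control (3), the same settings gave 1 (stricter rule), 6 and 1, and single libraries 2 to 5. Liver LPS+MIC-1 against LPS gave 0 throughout. Calls over all tested genes moved with the libraries too. In macrophage LPS against control they went from 0% to 36.9% higher and 38.2% lower without LPS library 2. In liver LPS against control they went from 19.2% and 15.5% to 28.8% and 22.7% in the 7 libraries. Shares under most other settings are not given here, so a changed count is not read as a result about the 10 genes.

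Signs turned as follows. In macrophage LPS against control the same FPKM sum gave -0.16 for Atf4, -0.48 for Trib3, -0.47 for Chac1, -0.20 for Asns, -0.62 for Hspa5 and -0.28 for Sesn2, and without LPS library 2 -0.12, -0.80, -0.94, -0.21, -0.89 and -0.42. Chac1 also gave -0.024 with a GC and length trend taken out. Without LPS library 2 it gave -0.037 by median of ratios and -0.18 with averaging. Single libraries left out, from all libraries or after LPS library 2, moved it from -0.19 to 0.40. The low end was reached without both LPS library 2 and Control 1. In macrophage LPS+MIC-1 against LPS, LPS library 2 left out with median of ratios gave -0.14 for Atf4, -0.60 for Ddit3 and -0.31 for Ppp1r15a, with averaging -0.10, -0.63 and -0.30, and with the same sum 0.62 for Xbp1. Over single libraries left out, from all libraries or after LPS library 2, Atf4 ran from -0.23 to 0.40 and Ddit3 from -0.68 to 0.58. Ppp1r15a ran from -0.34 to 0.55 and Xbp1 from -0.93 to 0.21. The ends -0.23, -0.68, -0.34 and 0.21 came with LPS library 2 left out as well as another library. LPS library 2 alone left out gave -0.14 for Atf4, -0.60 for Ddit3 and -0.31 for Ppp1r15a.

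In liver LPS against control, Control 2 and 3 left out gave -0.51 for Atf4 and -0.51 for Trib3, which was -0.038 by median of ratios, -0.28 with the same sum and -0.042 with averaging, and -0.13 to 0.32 over single libraries. Ppp1r15a gave 0.11 in the 7 libraries and -0.30 to 0.11 over single ones. In liver LPS+MIC-1 against LPS the same sum gave -0.14 for Trib3 and -0.10 for Herpud1, the 7 libraries -0.25 for Chac1 and averaging 0.22 for Xbp1. Single libraries moved Trib3 from -0.056 to 0.27, Chac1 from -0.29 to 0.65, Hspa5 from -0.77 to 0.049, Xbp1 from -0.94 to 0.40, Ppp1r15a from -0.48 to 0.036 and Herpud1 from -0.23 to 0.62. In liver LPS+MIC-1 against control, Atf4 gave -1.14 and Trib3 -0.40 with Control 2 and 3 left out, and Trib3 -0.42 with the same sum and -0.020 to 0.43 over single libraries. Where an arm was left with 1 library it was assumed to vary like the other groups. The causes were not tested. The GC and length setting covered 96.2% of tested macrophage genes and 95.7% of liver genes. Of all single-gene values under these settings, 1066 kept direction and call, 125 gained a call, 71 lost it and 88 turned. No paired analysis was possible because the columns of the deposited tables carry no replicate number.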
